A study of Mus musculus with 2 samples.

Results

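The 7 genes described here are Arg1, Il4i1, Chil3, Retnla, Ear2, Clec10a and Mgl2, which are widely read as marks of alternative activation in mouse myeloid cells. They were chosen by gene symbol from the 32285 genes counted, and each symbol stood for 1 row of the table. Cells of the bowel and of the mesenteric adipose tissue, the fat that carries the vessels of the gut, were pooled and sequenced as single cells on the 10x Genomics platform. There were 2 libraries, each from mice of the B6/C57 genotype aged 8 to 12 weeks and taken 14 days after the operation: 1 library after colotomy, a surgical opening of the colon, and 1 library after sham surgery. The labels give neither the number nor the sex of the mice behind a library, and both libraries held cells with Y-linked RNA.

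Interleukin-4 and interleukin-13 bind receptors on macrophages and activate the transcription factor STAT6, and the genes it switches on define the alternatively activated state of worm infection, allergy and tissue repair. The products fall into enzymes that consume amino acids, secreted lectins and small proteins, a ribonuclease, and surface receptors for sugars. Several of them are also made without these cytokines, for example in the granules of developing neutrophils or in resident macrophages of fat and gut.

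Cells were kept with at least 500 unique molecular identifiers (UMIs, each standing for 1 counted RNA molecule), at least 300 genes and under 20% mitochondrial UMIs. This left 9246 of 15547 barcodes in the colotomy library and 42143 of 44814 in the sham library, with medians of 778.5 and 1328 UMIs per cell. Among 24 sets of marker genes, myeloid cells were sorted into types by the markers of their clusters, which were built without the 7 genes. Macrophage-like cells (C1qa, C1qb, Csf1r, Adgre1 and others) numbered 644 in the colotomy and 1686 in the sham library, monocyte-like cells (Ccr2, Lyz1, Ly6c2 and others) 317 and 983, dendritic-like cells 142 and 1966, and neutrophil-like cells (S100a8, S100a9, Ngp and others) 212 and 89. Leading markers were C1qa, at 1958 CPM (UMIs per 1000000 gene UMIs of those cells) in colotomy and 2165 CPM in sham macrophage-like cells, Ccr2, at 1085 and 690.1 CPM in monocyte-like cells, and S100a8, at 27984 and 11202 CPM in neutrophil-like cells. Other markers were low or uneven: Timd4 stood at 3.69 and 50.5 CPM and Folr2 at 81.3 and 257 CPM in macrophage-like cells, Vcan at 152 and 13.9 CPM in monocyte-like cells, and Ly6g had 23 and 4 UMIs in neutrophil-like cells. Ly6c2 was found in 8.52% of colotomy and 11.7% of sham monocyte-like cells. Of the 12 monocyte markers, 5 met the naming rule in each of the 2 monocyte-like clusters led by Lyz1. In type 2 conventional dendritic-like cells Zbtb46 and Ifi205 had 0 UMIs in the colotomy library and 22 and 8 in the sham library. A further 437 colotomy and 510 sham cells of myeloid clusters stayed unnamed, because their clusters held too many markers of another lineage, such as fibroblasts, or, for 1 cluster of 17 sham cells, had fewer than 30 cells. The same barcode sequence occurred in both libraries 190 times, and 108 of these pairs were kept. Cells with Y-linked and no Xist RNA were 43 of 644 colotomy and 540 of 1686 sham macrophage-like cells. Their types had medians of 701.5 and 1543 UMIs per cell, and whether the libraries differ in sex makeup was not tested.

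With 1 library per operation there is no replicate and no test of the operation. The intervals below are 95% intervals for counting error (exact Poisson for a level, exact binomial for a ratio or share), they take each UMI as an independent molecule, and differences are between these libraries. A gene was counted as higher or lower in the colotomy library when its CPM differed at least 1.5-fold and it had at least 10 UMIs over both libraries. Free RNA in droplets can give cells UMIs of genes they do not express, and its amount was not estimated here. Levels in T and B cell-like cells are given as background (143 colotomy and 20619 sham cells, medians of 620 and 1068 UMIs per cell).

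The genes were unequally myeloid. Of all UMIs in kept cells, myeloid clusters held 65.6% of Retnla in the colotomy library and 79.8% in the sham library, 78.7% and 88.8% of Chil3, 69.5% and 80.8% of Ear2, 64.8% and 78.2% of Mgl2, and 53.7% and 75.4% of Clec10a. Arg1 was mostly myeloid in the colotomy library, at 67.6%, against 27.3% in the sham library, where T cell-like cells held 75 of its 172 UMIs. Il4i1 lay mainly outside myeloid cells in both libraries, with 32.0% and 37.1% in myeloid clusters. For Il4i1 in both libraries and for Arg1 in the sham library, the name of a myeloid gene group therefore does not describe where most of the RNA was counted. Myeloid clusters were 1752 of 9246 colotomy and 5234 of 42143 sham kept cells, so the shares depend on cell numbers. Per UMI, sham dendritic-like (512 CPM) and macrophage-like cells (128 CPM) held more Il4i1 than sham cells outside the myeloid clusters (82.0 CPM). Sham monocyte-like cells held less (68.6 CPM, 57.8 to 80.8). Sham neutrophil-like cells had 63.4 CPM on 8 UMIs, with an interval of 27.4 to 125 that spans the level outside the myeloid clusters.

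**Figure D1:**
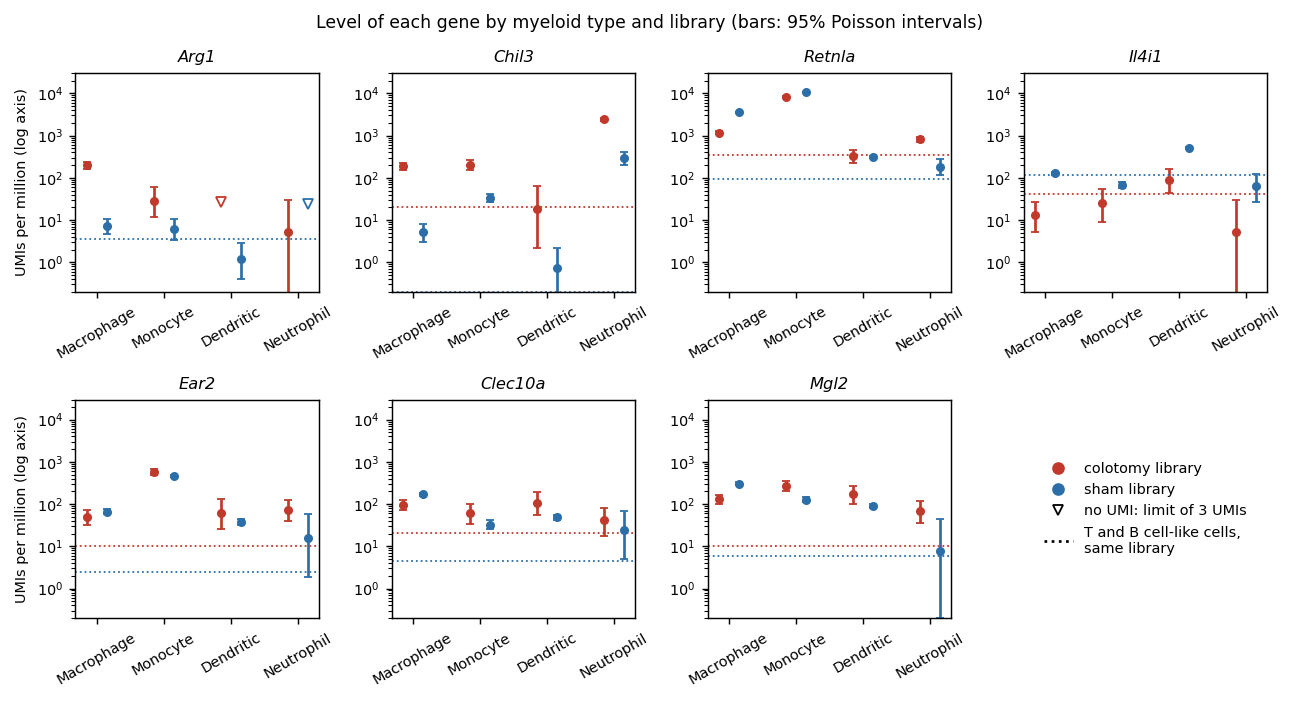
Level of each gene in CPM (log axis) in macrophage-, monocyte-, dendritic- and neutrophil-like cells, colotomy in red left of sham in blue. Bars are 95% Poisson intervals, open triangles mark the limit of 3 UMIs where none was counted, and dotted lines are T and B cell-like cells of the same library; none is drawn for Arg1 in the colotomy library, which had 0 UMIs in those cells. Arg1 and Chil3 stand apart between libraries in macrophage-like cells, Retnla is highest in monocyte-like cells of both, and Chil3 in neutrophil-like cells of both.

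Arg1 encodes the cytosolic arginase that turns arginine into ornithine and urea, and lies on chromosome 10 from 24915221 to 24927484, minus strand (GRCm38, GENCODE M21, as for all genes here). It was an RNA of colotomy macrophage-like cells. There it stood at 199 CPM (108 UMIs, interval 164 to 241), against 7.25 CPM (24 UMIs, 4.65 to 10.8) in sham macrophage-like cells, 27.5-fold higher (17.5 to 44.8). The sham level lies above that of sham T and B cell-like cells, 3.52 CPM (2.82 to 4.34), and of all sham cells outside the myeloid clusters, 2.10 CPM, and close to that of sham T cell-like cells alone, 7.21 CPM. In the colotomy library T and B cell-like cells had no Arg1 UMI and all cells outside the myeloid clusters had 8.20 CPM. Arg1 was also higher in monocyte-like cells, at 28.8 against 6.23 CPM, but on 7 and 13 UMIs (4.61-fold, 1.56 to 12.4). Dendritic-like cells had 0 and 5 UMIs and neutrophil-like cells 1 and 0 UMIs, below the minimum for a comparison.

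Within the macrophage-like cells, Arg1 was concentrated in the cluster led by Mmp12, Spp1 and Gpnmb, genes of a protease, osteopontin and a lysosomal glycoprotein. Of the 16 macrophage markers, 9 met the naming rule in this cluster and 0 were among its 10 leading genes. In its colotomy cells macrophage markers summed to 5072 CPM, monocyte markers to 3318 CPM and neutrophil markers to 1356 CPM. In its sham cells the sums were 4250, 2753 and 254 CPM. That cluster held 408 colotomy and 73 sham cells, 100 of the 123 myeloid Arg1 UMIs of the colotomy library (81.3%) and 10 of the 47 of the sham library (21.3%). Inside it Arg1 stood at 273 and 61.9 CPM, a ratio of 4.41 (2.30 to 9.48), so a smaller difference than over all macrophage-like cells. In the cluster led by C1qa, C1qb and C1qc (129 colotomy and 603 sham cells) it was 66.5 and 10.2 CPM, on 6 and 9 UMIs. Few cells carried the RNA: 52 of 644 colotomy and 14 of 1686 sham macrophage-like cells had a UMI, with up to 8 UMIs in a colotomy and 5 in a sham cell. Thinned to 500 UMIs per cell, which sets all cells to 1 depth, 5.43% (3.81% to 7.48%) of colotomy and 0.356% (0.131% to 0.773%) of sham macrophage-like cells held an Arg1 UMI.

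Il4i1 encodes a secreted amino acid oxidase that breaks down phenylalanine and other aromatic amino acids. Its gene, on chromosome 7 from 44816387 to 44840809, plus strand, overlaps Nup62 on the same strand and Atf5 and Tbc1d17 on the opposite strand, and reads of these cannot be told apart where they overlap. It was lower in the colotomy library in macrophage-like cells, at 12.9 CPM (7 UMIs) against 128 CPM (424 UMIs), a ratio of 0.101 (0.0403 to 0.210). Monocyte-like cells gave 24.6 against 68.6 CPM, 0.359 (0.130 to 0.802), and dendritic-like cells 90.2 against 512 CPM, 0.176 (0.0843 to 0.325). Outside the myeloid clusters Il4i1 also differed between libraries, at 9.18 CPM in colotomy and 82.0 CPM in sham cells. B cell-like cells were the highest class there, at 72.6 CPM (4 UMIs) in the colotomy and 147 CPM in the sham library. T and B cell-like cells together had 40.7 CPM (4 UMIs) in the colotomy and 117 CPM in the sham library, so they cannot serve as background for Il4i1. Epithelial-like cells had 18 UMIs in the colotomy library and 36.8 CPM in the sham library. Macrophage-like cells with a UMI of a B cell marker had 17.7 CPM in the colotomy and 136 CPM in the sham library, and those without had 10.8 and 55.8 CPM. The part of B cell RNA in the difference was not tested beyond this.

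Among named myeloid clusters, Il4i1 stood highest in 2 kinds of cell. Mature dendritic-like cells (Ccr7, Fscn1, Ccl22) stood at 759 CPM (9 UMIs in 16 cells, 347 to 1440) in the colotomy library and 1227 CPM (1926 UMIs in 746 cells, 1173 to 1283) in the sham library, with overlapping intervals. They held 29.0% and 66.8% of all myeloid Il4i1 UMIs. The other kind was a small macrophage-like cluster led by Marco, Il22ra2 and Pla2g2d, at 176 CPM (2 UMIs in 13 cells) in the colotomy and 779 CPM (166 UMIs in 95 cells, 665 to 907) in the sham library. At 16 against 746 mature cells, the lower Il4i1 over all dendritic-like cells of the colotomy library went with fewer of the cells that carried it.

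Chil3 encodes a chitinase-like lectin without chitinase activity, known as Ym1, and lies on chromosome 3 from 106147554 to 106167564, minus strand. It was the member with the highest ratio in macrophage-like cells and above all an RNA of immature neutrophils. Neutrophil-like cells stood at 2432 CPM (466 UMIs) in the colotomy and 293 CPM (37 UMIs) in the sham library, 8.29-fold higher (5.93 to 11.9). Of neutrophil-like cells with a UMI of the granule genes Ngp, Camp or Ltf, 67.3% of 104 colotomy and 31.3% of 16 sham cells held Chil3 at the thinned depth. Of those without, 2.78% of 108 colotomy and 1.37% of 73 sham cells did. Chil3 thus followed the granule genes in both libraries, and cells with a granule UMI were 104 of 212 colotomy and 16 of 89 sham neutrophil-like cells. In cells with a granule UMI the levels were 4694 and 1600.5 CPM.

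In macrophage-like cells Chil3 stood at 187 CPM (101 UMIs, 152 to 227) in the colotomy and 5.14 CPM (17 UMIs, 2.99 to 8.23) in the sham library, 36.3-fold higher (21.6 to 64.8). The cluster led by Mmp12, Spp1 and Gpnmb held 97 and 1 of these UMIs, at 265 and 6.19 CPM, a ratio of 42.8 with a counting interval of 7.50 to 1707. Only 44 colotomy and 7 sham macrophage-like cells had a UMI, with up to 16 and 5 per cell. Markers of neutrophils moved with this result: the 14 markers summed to 1042 CPM in colotomy and 196 CPM in sham macrophage-like cells, with Ly6g and Ltf at 0 in the colotomy and Hdc and Camp at 0 in the sham library. Colotomy macrophage-like cells with no neutrophil marker UMI held Chil3 at 193 CPM (475 cells, 152 to 242). Sham cells of that kind held 3.36 CPM (1282 cells, 1.45 to 6.62). Macrophage-like cells with such a UMI held 169 CPM in the colotomy and 9.70 CPM in the sham library. Which cells the macrophage-like Chil3 came from was not tested. Chil3 in T and B cell-like cells was 20.4 CPM in the colotomy (2 UMIs) and 0.200 CPM in the sham library. Over all cells outside the myeloid clusters Chil3 was 27.5 and 0.319 CPM, so its background also differed between libraries.

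Monocyte-like cells held Chil3 at 205 against 33.6 CPM, 6.12-fold higher (4.17 to 8.92). It lay in the cluster led by Lst1, Ms4a6c and Ly6i, at 562 CPM (37 UMIs) in the colotomy and 109 CPM (55 UMIs) in the sham library, a ratio of 5.17 (3.31 to 7.98). This cluster held 5.05% of the myeloid Chil3 UMIs of the colotomy library, where neutrophil-like cells held 63.6%, and 36.7% of those of the sham library, where neutrophil-like cells held 24.7%. Without a neutrophil marker UMI, monocyte-like cells stood at 116 and 27.9 CPM, and with one at 522 and 93.1 CPM. The difference did not hold in the few monocyte-like cells left when all cells with 2 or more UMIs of other lineages were set aside (ratio 0.872, on 7 and 6 UMIs).

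Retnla encodes a secreted cysteine-rich protein, resistin-like molecule alpha, and lies on chromosome 16 from 48842551 to 48844461, plus strand. It was carried by monocyte-like cells in both libraries. They stood at 8097 CPM (1971 UMIs, 7744 to 8463) in the colotomy and 10826 CPM (22577 UMIs, 10686 to 10969) in the sham library, a ratio of 0.748 (0.714 to 0.783), within 1.5-fold. At the thinned depth 49.8% (44.2% to 55.5%) and 59.6% (56.5% to 62.7%) of these cells held a UMI. Colotomy monocyte-like cells reached 61 UMIs in 1 cell, with a median of 8 in the 169 cells that had any, and sham cells, at their higher depth, reached 228 with a median of 25 in 634 cells.

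Macrophage-like cells held less Retnla after colotomy, at 1171 CPM (634 UMIs, 1082 to 1266) against 3551 CPM (11749 UMIs, 3487 to 3615), 3.03-fold lower (2.80 to 3.29). The clusters behind these means differed between libraries. The cluster led by Folr2, Cbr2 and Pf4, genes of resident macrophages, stood at 6475 CPM in 24 colotomy cells and 7014 CPM in 559 sham cells. The Mmp12, Spp1 and Gpnmb cluster stood at 1094 CPM in 408 colotomy and 699 CPM in 73 sham cells, a ratio of 1.57 (1.27 to 1.95), and the C1qa, C1qb and C1qc cluster at 809 in 129 colotomy and 1408 CPM in 603 sham cells, 0.575 (0.447 to 0.728). Retnla was thus higher in the colotomy library in the Mmp12 cluster and lower in the C1qa cluster. The colotomy library also had fewer Folr2 cells and more Mmp12 cells. The macrophage-like cluster led by Fcrls, Nusap1 and Hist1h2ap, with 11 colotomy and 215 sham cells, held 31 and 3106 Retnla UMIs. How much each cluster adds to the gap over all macrophage-like cells was not tested.

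In dendritic-like cells Retnla stood at 325 and 307 CPM. The colotomy value lies at the background of that library, where T and B cell-like cells had 356 CPM (35 UMIs), and the sham value lies above their 94.7 CPM but below sham vascular endothelial-like cells at 438 CPM. Neutrophil-like cells had 809 against 182 CPM, 4.44-fold higher (2.85 to 7.21), carried by 22 colotomy and 10 sham cells. With types taken from the marker UMIs of each cell the ratio was 1.30, within 1.5-fold, and over 11 alternatives it ran to at least 24.4, with the CPM of all cells outside the myeloid clusters subtracted. Monocyte markers moved with this: their 12 genes summed to 3099 and 1371 CPM in these cells, and all 155 colotomy Retnla UMIs lay in cells with a UMI of such a marker (174 of 212 cells, 978 CPM). In the sham library cells with one had 85.2 CPM and cells without one 465 CPM, on 8 and 15 UMIs. Retnla went the other way in 2 unnamed clusters led by S100a9, S100a8 and Retnlg, with ratios of 0.133 and 0.518. Which cells the neutrophil-like Retnla came from was not tested.

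Ear2 encodes an eosinophil-associated ribonuclease and lies on chromosome 14 from 44102654 to 44103534, plus strand, inside a noncoding gene of the opposite strand. Reads of its near-identical relatives can be assigned to it or lost, and Ear1, Ear6 and Ear10 each had 0 UMIs in every myeloid type of both libraries. Ear2 was a monocyte-like RNA with little difference between libraries, at 587 CPM (143 UMIs, 495 to 692) after colotomy and 462 CPM (963 UMIs, 433 to 492) after sham surgery, 1.27-fold (1.06 to 1.52). In the cluster led by Lyz1, Ccr2 and Fcrls it was 728 and 707 CPM, a ratio of 1.03 (0.767 to 1.39). Macrophage-like cells had 49.9 and 66.8 CPM (0.747, 0.481 to 1.12), dendritic-like cells 63.1 and 38.0 CPM (1.66, 0.658 to 3.51), and neutrophil-like cells 73.1 and 15.9 CPM on 14 and 2 UMIs. Against 10.2 CPM (1 UMI) and 2.44 CPM in T and B cell-like cells, Ear2 stood well over background in monocyte-like cells of both libraries.

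The promoter letters of the 2 genes that peaked in the same monocyte-like clusters, Retnla and Ear2, and of Chil3, which did not, are printed to show which known recognition letters they hold. Each is the 250 bases upstream of the RefSeq start site in GRCm38.p6, 5′ to 3′ on the gene's strand, from chr16:48842359-48842608 (plus) for Retnla, chr14:44102404-44102653 (plus) for Ear2 and chr3:106167565-106167814 (minus) for Chil3. Capitals mark matches on either strand to TTC and GAA with any 4 bases between them, the spaced palindrome that STAT6 prefers, TTCNNNGAA, the form bound by other STAT factors, or TTGCNNAA, the core of C/EBP sites. No match overlaps another.
Retnla: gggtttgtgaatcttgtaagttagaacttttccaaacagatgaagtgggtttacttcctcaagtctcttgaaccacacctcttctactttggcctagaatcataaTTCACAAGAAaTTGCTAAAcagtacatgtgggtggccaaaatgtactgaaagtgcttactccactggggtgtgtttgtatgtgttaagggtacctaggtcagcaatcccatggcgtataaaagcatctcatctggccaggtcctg
Ear2: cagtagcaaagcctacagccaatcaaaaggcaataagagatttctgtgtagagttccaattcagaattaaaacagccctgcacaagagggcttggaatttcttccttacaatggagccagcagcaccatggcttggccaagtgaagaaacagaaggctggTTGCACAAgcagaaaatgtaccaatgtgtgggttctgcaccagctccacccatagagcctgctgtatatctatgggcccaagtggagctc
Chil3: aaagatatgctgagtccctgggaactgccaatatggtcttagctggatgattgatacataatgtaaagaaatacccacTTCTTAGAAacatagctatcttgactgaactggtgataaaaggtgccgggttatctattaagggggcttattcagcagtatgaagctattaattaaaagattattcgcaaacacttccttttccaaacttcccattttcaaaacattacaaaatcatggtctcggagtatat
The Retnla window holds TTCACAAGAA starting 145 bases before the start site and, beside it, TTGCTAAA 134 bases before it. The Ear2 window holds TTGCACAA 90 bases before its start and the Chil3 window TTCTTAGAA 172 bases before its start. Of 32851 mouse promoter windows of this length, 5.85% held the form with 4 bases between, 7.02% TTCNNNGAA and 9.56% TTGCNNAA. Sequences were matched for 5 of the 7 genes, and those of Il4i1 and Mgl2 held none of these letters, which says nothing of the factors. The matches are descriptions of the letters, not binding sites.

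Clec10a and Mgl2 encode C-type lectin receptors that bind galactose and N-acetylgalactosamine on glycoproteins, and are neighbours on chromosome 11. Mgl2 lies from 70130329 to 70137550 and Clec10a from 70156197 to 70170834, both on the plus strand with 18646 bases between them, and as related copies they may share some reads. In macrophage-like cells both were lower after colotomy: Clec10a stood at 96.0 CPM (52 UMIs, 71.7 to 126) against 172 CPM (568 UMIs, 158 to 186), a ratio of 0.560 (0.413 to 0.744). Mgl2 stood at 131 CPM (71 UMIs, 102 to 165) against 306 CPM (1014 UMIs, 288 to 326), a ratio of 0.428 (0.332 to 0.545).

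Within the 2 clusters with most macrophage-like colotomy cells the ratios lay within 1.5-fold. In the C1qa, C1qb and C1qc cluster Clec10a was 111 CPM in each library (ratio 0.996, 0.463 to 1.91) and Mgl2 288 and 278 CPM (1.04, 0.663 to 1.56). In the Mmp12, Spp1 and Gpnmb cluster Clec10a was 38.2 and 37.1 CPM (1.03, 0.371 to 3.27) and Mgl2 65.5 and 80.4 CPM (0.814, 0.398 to 1.74). These intervals reach past 1.5-fold on either side for both genes, so differences of that size in these clusters were not detectable at this depth. Both genes stood high in the Folr2, Cbr2 and Pf4 cluster, with Clec10a at 893 CPM (16 UMIs in 24 cells, 511 to 1450) in the colotomy and 355 CPM (319 to 393) in the sham library, intervals that do not overlap, and Mgl2 at 558 and 546 CPM. Without the Mmp12 cluster the ratio over macrophage-like cells was 1.22 for Clec10a and 0.845 for Mgl2, so Clec10a was then no longer lower, and Mgl2 stayed lower within 1.5-fold.

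In monocyte-like cells the receptors were higher after colotomy, with Mgl2 at 271 CPM (66 UMIs) against 128 CPM (266 UMIs), 2.13-fold (1.60 to 2.79), and Clec10a at 61.6 against 32.6 CPM, 1.89-fold (1.00 to 3.34). With types from the marker UMIs of each cell these were 1.19 and 1.24, within 1.5-fold, and Clec10a was 1.09 in cells with at least 1000 UMIs and 1.19 at a Leiden resolution of 0.5. In the Lyz1, Ccr2 and Fcrls cluster Mgl2 was 322 and 203 CPM, 1.59-fold (0.95 to 2.72). In dendritic-like cells Mgl2 was 171 against 91.2 CPM (1.88, 1.12 to 2.98) and Clec10a 108 against 49.4 CPM (2.19, 1.11 to 3.92), on 19 and 12 colotomy UMIs. Markers of macrophages moved with this: the 16 markers summed to 676 CPM in colotomy and 282 CPM in sham dendritic-like cells, with Mertk and Folr2 at 0 in the colotomy and none at 0 in the sham library. In the type 2 cluster they summed to 696 and 353 CPM, with 8 and 2 markers at 0. Their part in the result was not tested. The makeup of this type differed, since type 2 conventional dendritic-like cells, the richest in Mgl2, were 36 of 142 colotomy and 410 of 1966 sham cells and mature ones 16 and 746. Within the type 2 cells Mgl2 was 653 CPM (15 UMIs, 365 to 1076) against 426 CPM (320 UMIs, 380 to 475), and Clec10a 261 against 153 CPM, with overlapping intervals. Plasmacytoid dendritic-like cells had 2 Clec10a and 0 Mgl2 UMIs in 10 colotomy cells, and Clec10a at 120 CPM (60 UMIs, 91.8 to 155) and Mgl2 at 22.0 CPM (11 UMIs, 11.0 to 39.5) in 274 sham cells. Neutrophil-like cells had 13 and 1 UMIs of Mgl2 (8.56, interval 1.29 to 364) and 8 and 3 of Clec10a (1.76, 0.421 to 10.3). T and B cell-like cells had 10.2 and 5.84 CPM of Mgl2 and 20.4 and 4.60 CPM of Clec10a.

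Counted by type, the 7 genes did not move as a group. In macrophage-like cells 2 of 7 were at least 1.5-fold higher in the colotomy library (Arg1 and Chil3), where 17.5% of the 11456 genes compared were, and 4 were lower (Retnla, Il4i1, Clec10a and Mgl2), where 28.9% were. In monocyte-like cells 4 of 7 were higher (Arg1, Chil3, Clec10a and Mgl2), against 19.4% of 10042 genes, and 1 was lower (Il4i1), against 20.3%. In dendritic-like cells 5 could be compared, 3 were higher (Ear2, Clec10a and Mgl2), against 25.8% of 11460 genes, and 1 was lower (Il4i1), against 14.5%. In neutrophil-like cells 5 of 5 were higher and 0 lower, against 26.4% and 27.7% of 4535 genes, but only Chil3, Retnla and Ear2 there had more than 13 colotomy UMIs. This type is 1 cluster, and 2 unnamed clusters led by S100a9, S100a8 and Retnlg (281 and 131 colotomy cells) differed from it. Ratios in them were 0.133 and 0.518 for Retnla and 0.173 and 0.300 for Mgl2. Clec10a was 0.473 and 0.534, with intervals that reach past 1. Chil3 was higher in both (16.5 and 1.54), and Ear2 was 0.512 and 1.23. The median log2 ratio of all genes compared was -0.14 in macrophage-, 0.05 in monocyte-, 0.45 in dendritic- and -0.02 in neutrophil-like cells, so all genes together leaned to higher values in dendritic-like cells. By subtype, 3 of 5 genes were higher and 1 lower in type 1 dendritic-like cells, against 27.6% and 14.2% of 8834 genes, and 2 higher and 1 lower of 5 in type 2 cells, against 29.5% and 7.63% of 7467 genes. In type 2 cells, where the colotomy library has 36 cells, the median of all genes was itself 1.17 on the log2 scale, above the values of Mgl2 (0.62) and Clec10a (0.77). The genes were counted only where they reached 10 UMIs, which leaves out Arg1 and Chil3 in dendritic-like and Arg1 and Il4i1 in neutrophil-like cells.

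**Figure D2:**
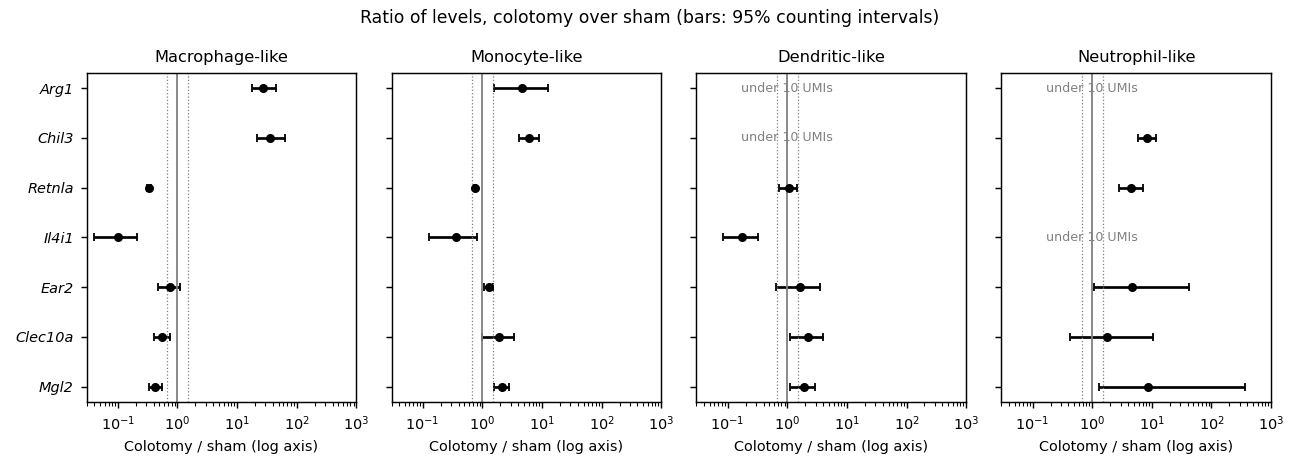
Ratio of each gene's CPM, colotomy over sham (log axis), with 95% exact intervals, in 1 panel per myeloid type; dotted lines mark 1.5-fold in each direction and genes under 10 UMIs have no point. Arg1 (27.5) and Chil3 (36.3) stand far to the right in macrophage-like cells, while Retnla (0.330), Clec10a (0.560) and Mgl2 (0.428) lie to the left.

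**Figure D3:**
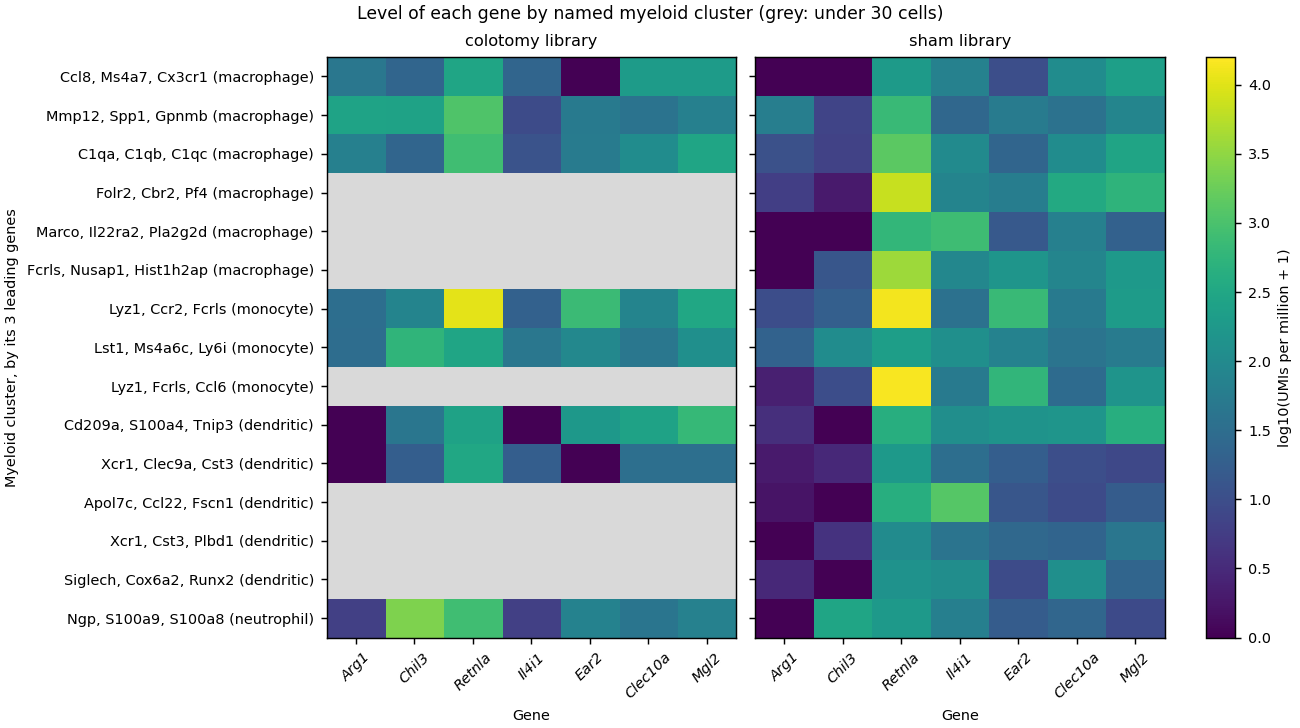
Heat map of log10(CPM + 1) of each gene in the named myeloid clusters, colotomy on the left and sham on the right, with clusters under 30 cells in grey. Retnla and Ear2 are brightest in the Lyz1 clusters, Chil3 in the Ngp cluster, Il4i1 in the sham Apol7c, Ccl22 and Fscn1 cluster of mature dendritic-like cells, and Clec10a in the sham Folr2 cluster. Mgl2 is brightest in the colotomy Cd209a cluster of type 2 dendritic-like cells (653 CPM) and the sham Folr2 cluster (546 CPM).

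The clusters give the finer order. Retnla UMIs of the colotomy library lay mainly in the Lyz1, Ccr2 and Fcrls cluster (52.7% of the myeloid total; 213 colotomy and 101 sham cells), at 10585 CPM against 13400 CPM in sham cells of it. In the sham library they lay mainly in the related cluster led by Lyz1, Fcrls and Ccl6 (53.7%; 22 colotomy and 581 sham cells), at 13831 CPM in the colotomy and 14283 CPM in the sham library. With 72.7% of colotomy and 85.4% of sham cells of that cluster holding a UMI at 500 UMIs per cell, most of these cells carried the RNA. Ear2 followed the same clusters, with 52.3% of its colotomy myeloid UMIs in the first and 59.3% of its sham UMIs in the second. The third monocyte-like cluster, led by Lst1, Ms4a6c and Ly6i, held little Retnla (288 and 227 CPM) but most monocyte Chil3. The clusters that held the UMIs of Mgl2 differed between libraries. Mgl2 had 26.3% of its colotomy myeloid UMIs in the Lyz1, Ccr2 and Fcrls cluster and 5.26% in the Folr2 cluster, while 28.4% of its sham UMIs lay in the Folr2 cluster and 16.4% in type 2 dendritic-like cells. Clec10a had 14.8% of its colotomy and 37.3% of its sham UMIs in the Folr2 cluster. Sham Arg1 was spread, with 10 UMIs each in the Mmp12 and Lst1 clusters and 9 in the C1qa cluster.

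Which genes shared cells was read at 500 UMIs per cell in the 1315 colotomy and 4724 sham cells of the named myeloid types. Retnla and Ear2 shared the most. Of Ear2 cells, 65.5% of 84 in the colotomy and 76.3% of 245 in the sham library also held Retnla, against 15.8% and 24.7% of cells without Ear2. The other way round, 22.0% of 250 colotomy and 14.5% of 1294 sham Retnla cells held Ear2. The gaps were smaller within a type and within a cluster, and the part of shared clusters in the overlap was not tested. Within monocyte-like cells the shares were 72.4% and 87.5% in Ear2 cells against 44.8% and 53.5% in the others. Within the Lyz1, Ccr2 and Fcrls cluster they were 73.9% and 79.3% against 61.1% and 65.3%. That cluster held 46 colotomy and 29 sham Ear2 cells, and these last gaps were not tested. In the sham Lyz1, Fcrls and Ccl6 cluster, 93.5% of 139 Ear2 cells held Retnla, against 82.8% of the others.

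Clec10a and Mgl2 also shared cells. Mgl2 was found in 13.2% of 53 colotomy and 18.9% of 238 sham Clec10a cells, against 6.74% and 7.29% of cells without Clec10a. Within the sham Folr2, Cbr2 and Pf4 cluster it was 26.0% of 96 Clec10a cells against 23.3% of the others. Arg1 and Chil3, the 2 genes higher in colotomy macrophage-like cells, overlapped in 9 cells, 23.7% of the 38 Arg1 cells, against Chil3 in 9.63% of cells without Arg1. Of those, 7 lay in the Mmp12, Spp1 and Gpnmb cluster, where Chil3 was found in 22.6% of 31 Arg1 cells and 7.43% of the others. In the sham library 0 of 11 Arg1 cells held Chil3.

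Retnla and Mgl2 occurred together in 28 colotomy and 159 sham cells, with Retnla in 30.4% of 92 colotomy and 42.7% of 372 sham Mgl2 cells, against 18.2% and 26.1% of cells without Mgl2. Retnla and Clec10a occurred together in 14 colotomy and 91 sham cells, 26.4% of 53 and 38.2% of 238 Clec10a cells, against 18.7% and 26.8% of the others. Chil3 and Retnla occurred together in 6 colotomy cells and 1 sham cell, which is 4.55% of 132 colotomy and 1 of 25 sham Chil3 cells, against Retnla in 20.6% and 27.5% of cells without Chil3. Retnla and Il4i1 occurred together in 0 of 15 colotomy and 48 of 457 sham Il4i1 cells (10.5%), against 29.2% of sham cells without Il4i1. Cells with 3 or more of the 7 genes were 1.86% of colotomy and 2.02% of sham macrophage-like cells and 1.89% and 2.14% of monocyte-like cells. None of the 7 was found in 73.0% of colotomy and 48.8% of sham macrophage-like cells, and in 31.9% and 32.5% of monocyte-like cells. At this depth a missing UMI does not show that a cell lacks the RNA.

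**Figure D4:**
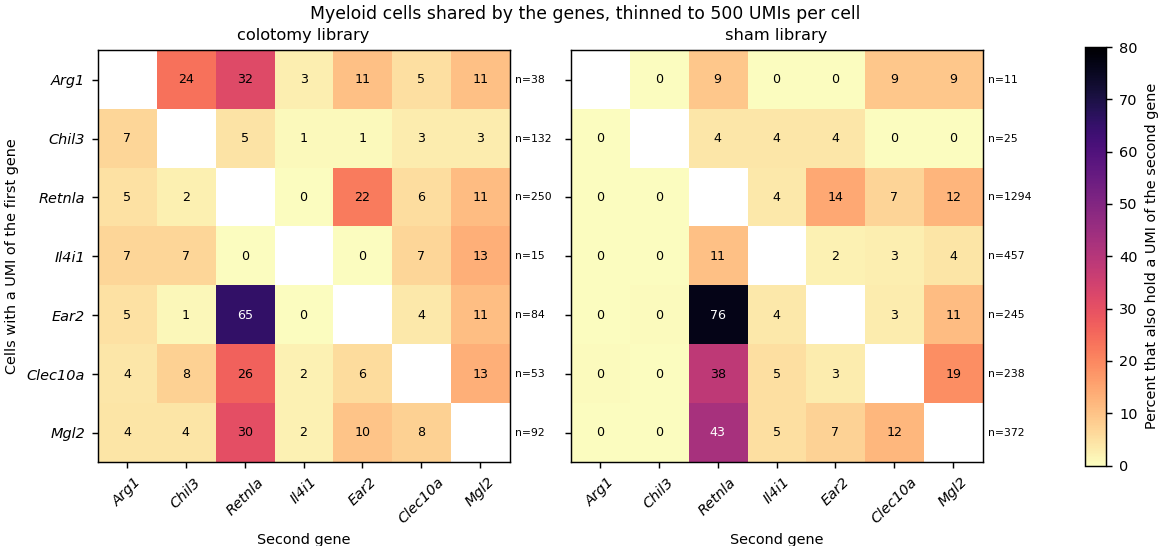
Percent of named myeloid cells with a UMI of the gene in the row that also hold a UMI of the gene in the column, at 500 UMIs per cell, for the colotomy library (left) and the sham library (right); n is the number of cells with the row's gene. The darkest squares are Ear2 cells that hold Retnla (65.5% colotomy, 76.3% sham), and the Chil3 row is pale throughout.

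The genes most like each member were taken over 30 points (myeloid clusters of a library with at least 30 cells) from 10185 genes, by Pearson's r of log2(CPM + 10). The points share libraries and clusters, so r is a description. Nearest Arg1 were Trem2, a lipid receptor (0.825), Lhfpl2 (0.822) and the protease gene Ctss (0.777). Nearest Il4i1 were the chemokine receptor Ccr7 (0.850), H2-Q6 (0.810) and Rogdi (0.800). Nearest Chil3 were the neutrophil collagenase Mmp8 (0.867), Lrg1 (0.860) and haptoglobin Hp (0.851). Lysozyme Lyz1 (0.784), Kif19a (0.778) and Rem1 (0.765) were nearest Retnla, and S100a4 (0.850), Mcub (0.835) and the leukotriene receptor Ltb4r1 (0.813) nearest Ear2. The haemoglobin scavenger receptor Cd163 (0.782), Ehd4 (0.775) and Nek7 (0.757) were nearest Clec10a, and the endocytic adaptor Dab2 (0.864), Tent5a (0.817) and Abca9 (0.799) nearest Mgl2. Between members r was 0.795 for Clec10a and Mgl2, 0.729 for Retnla and Ear2, 0.560 for Retnla and Mgl2, 0.357 for Arg1 and Chil3 and -0.549 for Chil3 and Il4i1.

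The wider pathway was described with gene lists. Over all genes compared, 17.5% were higher and 28.9% lower in macrophage-like cells, and 19.4% and 20.3% in monocyte-like cells. The ligands were nearly absent: Il4 had 0 colotomy and 10 sham UMIs and Il13 had 1 and 4 UMIs in all kept cells, and T cell-like cells held 5 of the 10 and 3 of the 4. Of the 9 ligand and alarmin genes, 3 could be compared in macrophage-like cells, with Csf1 higher (20.3 against 3.93 CPM), Tslp lower on 3 and 47 UMIs (ratio 0.390, 0.0777 to 1.21) and 2 higher in all. In monocyte-like cells 1 could be compared and lay within 1.5-fold. Il33, an alarmin that drives their release, was highest in fibroblast-like cells, at 108 and 66.9 CPM. The receptor chain Il4ra was highest in macrophage-like cells of the colotomy library, at 177 CPM, while the sham library had it highest in B cells, at 156 CPM. In macrophage-like cells, 3 of the 12 receptor signalling genes compared were higher and 3 were lower (median log2 ratio -0.11); the feedback inhibitors Cish (20.3 against 2.72 CPM) and Socs3 (97.9 against 37.2 CPM) and the receptor chain Il13ra1 (59.1 against 23.6 CPM) were higher and the adaptor Irs2 (20.3 against 53.5 CPM) lower. In monocyte-like cells 2 were higher and 6 lower of 12, median -0.58, with Socs3 (3.19-fold) and Il13ra1 (3.12-fold) higher and Il2rg (ratio 0.439) and Jak3 (0.365, 0.0429 to 1.39, on 2 and 47 UMIs), which lymphocytes also express, lower.

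Of the 12 transcriptional regulators of the state, 6 were higher and 2 lower in macrophage-like cells (median log2 ratio 0.82), where 17.5% and 28.9% of all genes were. The counts were also 6 and 2 in monocyte-like cells (0.43), against 19.4% and 20.3% of all genes, and no test was made. Cebpb, a factor that Arg1 expression in macrophages needs, stood at 1319 against 184 CPM in macrophage-like cells, 7.18-fold, and 653 against 285 CPM in monocyte-like cells. Egr2 was 55.4 against 14.5 CPM in macrophage-like and 53.4 against 21.1 CPM in monocyte-like cells, and the immediate early gene Nr4a1 249 against 83.1 CPM and 160 against 83.4 CPM. Irf4, a factor of alternative activation that B cells also carry, went the other way in macrophage-like cells, at 22.2 against 94.0 CPM, where the 7 B cell markers summed to 702 in the colotomy and 2560 CPM in the sham library.

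Of 18 other effector genes compared in macrophage-like cells, 5 were higher and 10 lower, median log2 ratio -0.74, against 17.5% and 28.9% of all genes. Transglutaminase Tgm2 (120 against 13.6 CPM) and the scavenger receptor Msr1 (177 against 42.3 CPM) were higher, while the folate receptor Folr2 (81.3 against 257 CPM) and Fcer2a (79.4 against 280.1 CPM), also a B cell marker, were lower. Mrc1, the mannose receptor most used to mark the state, was 502 against 559 CPM, within 1.5-fold. In monocyte-like cells the count was 10 higher and 2 lower of 18, median 0.65, against 19.4% and 20.3% of all genes. Stab1 (3.25-fold) and Gas6 (2.55-fold) were higher there, and the chemokine Ccl24 (28.8 against 78.6 CPM) and Fcer2a (65.7 against 214 CPM) lower. Most of these monocyte counts are small: with at least 50 UMIs over both libraries, 1 gene was higher and 2 lower.

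Genes of arginine, polyamine and tryptophan metabolism were 4 higher and 3 lower of 12 in macrophage-like cells (median -0.18) and 2 and 3 of 10 in monocyte-like cells (-0.01). Over all genes compared, 17.5% were higher and 28.9% lower in macrophage-like cells, and 19.4% and 20.3% in monocyte-like cells. The arginine importer Slc7a2 (29.6 against 5.14 CPM) and Ass1, which remakes arginine (29.6 against 13.6 CPM), were higher with Arg1 in macrophage-like cells, and Kynu (1 and 39 UMIs, ratio 0.157, 0.00387 to 0.926) and Afmid (3 and 33 UMIs, 0.556, 0.109 to 1.77), both of tryptophan breakdown, were lower. Monocyte-like cells had Kynu (1.90-fold) and Azin1 (1.89-fold) higher and the arginine importer Slc7a1 (0.544) and Afmid (0.343, 0.00835 to 2.09, on 1 and 25 UMIs) lower. Genes of the classical, inflammatory state were 4 higher and 2 lower of 10 in macrophage-like cells (median 0.19) and 3 and 1 of 9 in monocyte-like cells (0.03). Ptgs2, which makes prostaglandin precursors, was 447 against 5.74 CPM, Il1b 713 against 34.8 CPM and Tnf 88.7 against 9.97 CPM in macrophage-like cells, while Cd40 was 16.6 against 39.6 CPM. In monocyte-like cells Ptgs2 (19.6-fold), Il1b (5.29-fold) and Cxcl10 (2.01-fold) were higher and Cd40 lower on 1 and 47 UMIs (0.182, 0.00452 to 1.07).

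**Figure D5:**
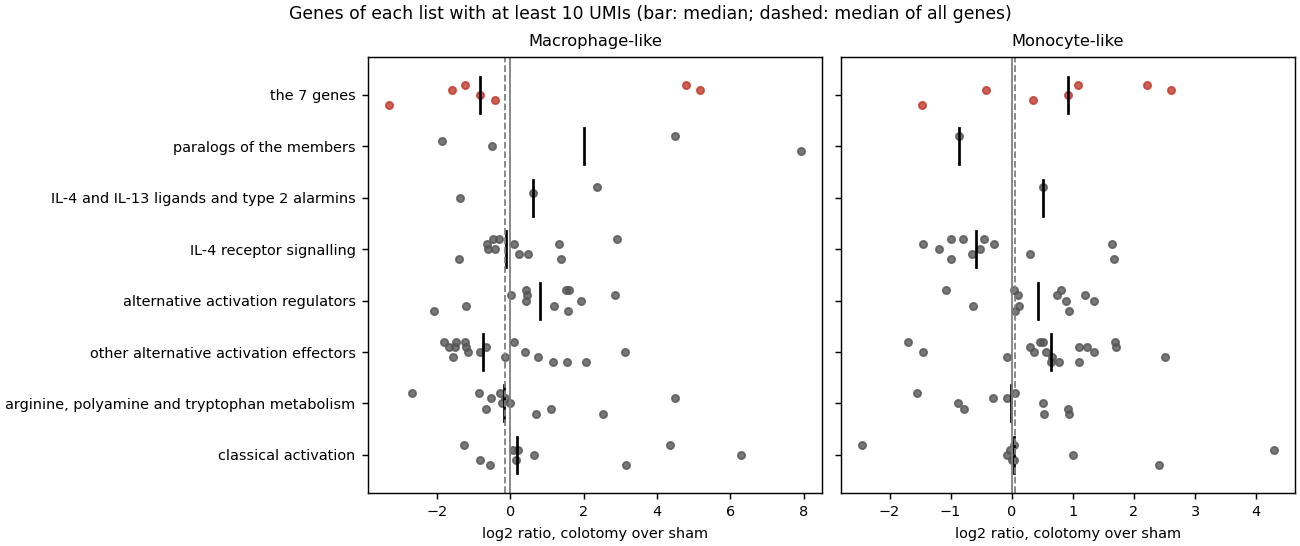
Log2 ratio of colotomy over sham for each gene with at least 10 UMIs, by list (rows), in macrophage-like (left) and monocyte-like cells (right); black bars are list medians and the dashed line the median of all genes. The 7 genes in red spread from far below to far above 0 in macrophage-like cells, with a median of -0.84, and have a median of 0.92 in monocyte-like cells.

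Relatives of the members were mostly scarce: of 12, 4 could be compared in macrophage-like cells, with 2 higher and 1 lower, and 1 in monocyte-like cells, which was lower. Of all genes compared, 17.5% were higher and 28.9% lower in macrophage-like cells, and 20.3% were lower in monocyte-like cells. Retnlg, a neutrophil relative of Retnla, stood at 3397 CPM in colotomy and 4535 CPM in sham neutrophil-like cells, so it was not higher after colotomy there as Chil3 was. In macrophage-like cells Retnlg had 40 UMIs after colotomy and 1 after sham surgery, a ratio of 244 with a counting interval of 41.4 to 9895. Chil1, a relative of Chil3, had 136 and 63.4 CPM in neutrophil-like cells. The mitochondrial arginase Arg2 was 20.3 CPM (11 UMIs) in colotomy macrophage-like cells. Asgr2, a liver lectin related to Clec10a, was lower in macrophage-like cells on 1 and 22 UMIs (ratio 0.278, 0.00673 to 1.72), and Retnlb, a goblet cell relative of Retnla, had 3 and 47 UMIs in monocyte-like cells (0.547, 0.109 to 1.70).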

How the data were processed

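Both libraries were deposited as filtered 10x Genomics matrices of gene counts (UMIs per cell) with hashtag counts. The authors made these counts with Cell Ranger 6.0.0, per the file headers; STAR 2.5.1b and the build mm10 are named in the submitters' processing notes, where Seurat and Space Ranger stand without a role. CPM are the summed counts of a gene over the cells of a type per 1000000 gene counts of those cells, computed here from the deposited counts. Cells with at least 500 UMIs, 300 genes and under 20% mitochondrial UMIs were clustered with scanpy 1.11.5 (2000 variable genes, 30 principal components, 15 neighbours, Leiden resolution 1), and cells of the myeloid clusters were clustered again without the 7 genes. A cluster was named when at least 3 markers of a set were found in 10% of its cells at 2-fold the level elsewhere, and left unnamed where at least 3 markers of another lineage reached 0.5 times that set's share found, or led its top 10 genes, or where it had under 30 cells. Intervals used scipy 1.17.1. Totals were 12002711 colotomy and 74006762 sham gene UMIs, and intervals cover counting error only.

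No doublet caller was run: 776 colotomy and 2030 sham barcodes positive for both hashtags were kept, and left out as an alternative. The hashtags did not separate the tissues, since epithelial- and mesothelial-like cells leaned to the same hashtag within a library, so bowel and fat were not compared. Coordinates come from GENCODE M21 and promoter sequences from RefSeq. From each list, up to 4 genes per type with at least 20 UMIs and the largest ratio past 1.5-fold are named, and Mrc1 was added after its values were seen. One gene that this rule names is not reported here. For each gene the 3 most alike among genes with at least 50 myeloid UMIs are named. The members and lists were chosen with earlier results of these data known. Alternatives changed the cell filters, clustering resolution, typing, free RNA subtraction, fold and thinning.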

Additional observations from a re-analysis of the deposited data

Results flagged for a closer look

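Retnla, Clec10a and Mgl2 lay past 1.5-fold in opposite directions in different myeloid types. The difference between types was not tested, since each value compares 1 library with 1 library.

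Retnla was higher in the colotomy library in neutrophil-like cells (ratio of colotomy over sham 4.44) and lower in macrophage-like cells (0.330). Clec10a was higher in monocyte-like cells (1.89) and dendritic-like cells (2.19) and lower in macrophage-like cells (0.560). Mgl2 was higher in monocyte-like cells (2.13), dendritic-like cells (1.88) and neutrophil-like cells (8.56, on 13 and 1 UMIs) and lower in macrophage-like cells (0.428). In 2 unnamed clusters led by S100a9, S100a8 and Retnlg, not counted as neutrophil-like, Retnla was 0.133 and 0.518 and Mgl2 0.173 and 0.300. Without the cluster led by Mmp12, Spp1 and Gpnmb, the macrophage-like ratios were 1.22 for Clec10a and 0.845 for Mgl2, so Clec10a turned and Mgl2 stayed lower, within 1.5-fold. With types from the marker UMIs of each cell, Retnla in neutrophil-like cells was 1.30, and Mgl2 and Clec10a in monocyte-like cells were 1.19 and 1.24, all within 1.5-fold. Clec10a in monocyte-like cells was 1.09 in cells with at least 1000 UMIs.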

How the results depend on the processing

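No paired analysis was possible because each operation has 1 library and the labels carry no replicate numbers. Of 289 recomputed ratios of the 7 genes, 226 stayed within the counting interval of the main value, 59 moved out of it and 4 turned. Those that turned were Chil3 in monocyte-like cells (0.872) and Mgl2 in dendritic-like cells (0.598) without cells of 2 or more UMIs of other lineages, Clec10a in macrophage-like cells without the Mmp12, Spp1 and Gpnmb cluster (1.22), and Il4i1 in monocyte-like cells after subtracting the CPM of all cells outside the myeloid clusters (at least 10.8, with sham at the floor). The last 2 settings were chosen after seeing the data. Turning was counted only for ratios past 1.5-fold in the main setting, and ratios within 1.5-fold also crossed 1. Ear2 ranged from 0.485 to 2.54 in macrophage-like cells (main 0.747) and from 0.931 to 1.56 in monocyte-like cells (1.27). Retnla ranged from 0.128 to 3.39 in dendritic-like cells (main 1.06) and from 0.373 to 1.05 in monocyte-like cells (0.748). Over 14 alternatives Arg1 in macrophage-like cells ranged from 10.3 to 57.3, Chil3 from 4.50 (without the Mmp12 cluster) to 131 and Retnla from 0.236 to 0.472; over 11, Chil3 in neutrophil-like cells ranged from 4.98 to 10.6.

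Counts of genes past 1.5-fold moved as follows. Shares over all genes were not computed for these settings, so these counts cannot be set against such a share. In monocyte-like cells 2 were higher and 2 lower with at least 1000 UMIs and 500 genes, 2 lower at Leiden resolution 2, 1 higher with types from marker UMIs, 1 higher and 0 lower without cells of other lineages, and 0 lower after either subtraction (T and B cells, or all cells outside the myeloid clusters). In neutrophil-like cells 2 were higher with at least 1000 UMIs, 3 under 10% mitochondrial UMIs, 3 with marker UMIs, and 1 was lower at resolution 2. In dendritic-like cells 2 were lower without cells of other lineages and 2 after T and B cell subtraction, and 1 was higher at a fold of 2. In macrophage-like cells 2 were lower without the Mmp12 cluster. The share of sham Mgl2 cells with Clec10a was 12.1% at 500 UMIs, 18.7% at 1000 and 25.9% unthinned. With a minimum of 50 UMIs, 10 of 28 list counts moved by over 1.5 times, the largest being monocyte effectors higher (1, against 10). Other causes were not tested. Under 30 cells left no value for dendritic-like cells with at least 1000 UMIs, neutrophil-like cells without other lineages, and both types in cells with Y-linked and no Xist RNA. Depth limits the colotomy values, for example in 142 dendritic-like cells at a median of 693 UMIs.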

Other observations

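The colotomy library had 62 T cell-like cells and no Arg1 UMI in them, with an interval that reaches 85.5 CPM. Sham T cell-like cells held Arg1 at 7.21 CPM (75 UMIs in 7798 cells, 5.67 to 9.04), above sham B cell-like cells at 0.891 CPM (13 UMIs in 12821 cells, 0.474 to 1.52) and above sham fibroblast-like cells at 0.825 CPM (0.356 to 1.62). Plasma cell-like cells were the highest class outside the myeloid clusters for Arg1 (24.0 CPM, 10 UMIs) and for Chil3 (69.5 CPM, 29 UMIs) in the colotomy library.

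In 2 unnamed clusters led by S100a9, S100a8 and Retnlg, which also held markers of fibroblasts or epithelium, Chil3 was 317 CPM in 281 colotomy and 19.2 CPM in 48 sham cells, and 166 CPM in 131 colotomy and 108 CPM in 66 sham cells. Retnla there was 239.5 against 1803 CPM in the first and 1461 against 2821 CPM in the second. An unnamed cluster led by haemoglobin genes held Retnla at 1622 CPM in 19 colotomy and 5927 CPM in 121 sham cells. An unnamed cluster led by Apol7c, Fscn1 and Ccl22, with markers of fibroblasts, had 2 colotomy cells and held Il4i1 at 836 CPM in 61 sham cells.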
